A study of Homo sapiens with 9 samples.

Results

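A set of 10 genes that encode regulators of DNA methylation and histone marks, several of them recurrently mutated in myeloid neoplasms, were examined for contacts of their RNA with the splicing factor SF3B1. They were DNMT1, DNMT3A, TET2, EZH2, SUZ12, EED, ASXL1, KDM6A, BCOR and KMT2A. A site belonged to a gene when its centre lay inside the RefSeq span of the gene on GRCh38 and on the strand of the gene. This rule gave 355 of the 96852 listed sites, or 0.367% (95% Wilson interval 0.330% to 0.407%). All 10 genes held at least 1 site, as did 38% of all 20050 protein-coding genes and 50.9% of the 5999 that are as long as these 10 (42.9 to 240 kb). None of the 355 sites lay in a second protein-coding gene, and the opposite strand of the 10 genes held 0 sites.

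The data came from iCLIP, in which ultraviolet light fixes a protein to the RNA it touches (here 400 mJ/cm2 at 254 nm) and immunoprecipitation recovers the complexes. The series had 9 samples of K562, an established human leukaemia line, in 3 groups. SF3B1 was recovered with the monoclonal antibody clone 16 from 3 samples with the genotype SF3B1 wt/wt and from 2 samples with SF3B1 K700E/wt. The lines of both genotypes were from Horizon Discovery. U2AF2 was recovered from 4 samples of SF3B1 wt/wt cells from ATCC. The sample titles call the samples of a group replicates and do not say whether they were separate cultures. No agent other than the ultraviolet light is named for any group, and the labels do not say whether the K700E/wt line is a clone. One merged list of sites, which the labels attach to the 3 unmutated SF3B1 samples, was analysed. The header of the list counts a site when all replicates of either condition reproduce it, so no site is assigned to a genotype here. The other 6 samples had no table here, and the K700E/wt and U2AF2 comparisons were not analysed here.

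Every listed site was 5 nt wide and had a score of 0. Neither read numbers nor values for single replicates accompanied the sites. The depth is therefore unknown, no spread between replicates can be given, and no test was made. Shares carry 95% Wilson intervals, which cover counting error only and treat neighbouring sites as independent, which they are not. Levels of the RNAs were not measured here, and counts of sites carry no correction for them. The samples were of bulk cells, so fewer cells carrying an RNA and less RNA per cell cannot be told apart.

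The tissue label calls the cells chronic lymphoid leukaemia derived, whereas K562 is known as a chronic myeloid leukaemia line with erythroid and megakaryocytic features. Of 12 erythroid and megakaryocytic marker genes, 8 held a site, among them TFRC with 121 sites, RHAG with 46, TAL1 with 17, NFE2 with 14 and GATA1 with 6. KLF1, HBG1 and HBG2 were among those at 0. All 8 B-lymphoid and all 8 T-lymphoid marker genes were at 0, including PAX5, CD3E and LCK. TFRC, the transferrin receptor, is also made by other dividing cells, and reads from the near-identical HBG1 and HBG2 may not have mapped uniquely.

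SF3B1 is the largest protein of the SF3b complex of the U2 small nuclear ribonucleoprotein, which selects the branch point of an intron before splicing. Hotspot mutations of SF3B1, K700E among them, are frequent in myelodysplastic neoplasms, diseases in which TET2, ASXL1, DNMT3A and EZH2 are also often mutated. DNA methyltransferases add a methyl group to cytosine and TET enzymes oxidise it. Polycomb repressive complex 2 (PRC2) methylates lysine 27 of histone H3, KDM6A removes that mark, and KMT2A writes the opposing mark on lysine 4. ASXL1 works with the deubiquitinase BAP1, and BCOR with a variant Polycomb repressive complex 1.

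The number of sites ranged from 1 in DNMT3A to 93 in EZH2, with a median of 22. The 7609 protein-coding genes with a site (38% of all) are the background here, and in those genes the median count was 7, the lower quartile 3 and the upper quartile 15. At least 5 sites were present in 8 of the 10 genes, against 23.1% of all protein-coding genes. At least 10 sites were present in the same 8, against 14.8% of all protein-coding genes. The 10 genes are long, with a median of 85.7 kb against 36.1 kb in genes with a site. Among the 5999 protein-coding genes between 42.9 kb and 240 kb long, the range of the 10, 50.9% had a site, 35.3% had at least 5 and 25.3% had at least 10. The counts of the 10 genes thus lay on both sides of the middle of genes with a site. DNMT3A and TET2 were below the lower quartile or at it, and the other 8 were above the upper quartile. These quartiles were not matched for length. Of these 8, BCOR (0.143 sites per kb) was below the median density of 0.199 in genes with a site. By density, ASXL1, KDM6A and SUZ12 exceeded 58.3%, 59.0% and 63.4% of those genes. KMT2A exceeded 73.1%, EED 75.2%, DNMT1 88.7% and EZH2 90.6%. EZH2, KDM6A and DNMT1 together held 225 sites, or 63.4% of the 355.

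**Figure D1:**
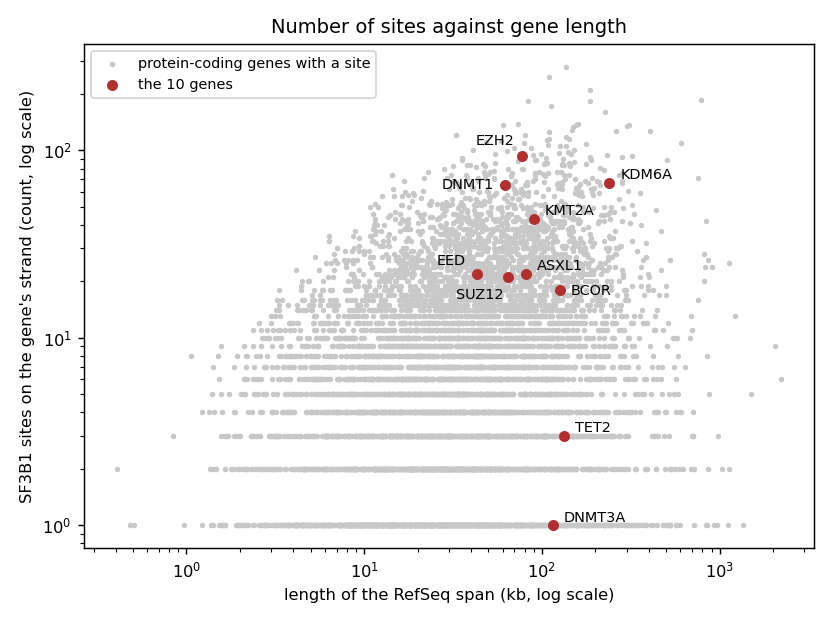
Number of SF3B1 sites on the strand of the gene (count, log scale) against the length of the RefSeq span (kb, log scale). Grey points are the 7609 protein-coding genes with a site and red points the 10 genes, which run from DNMT3A with 1 site to EZH2 with 93.

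DNMT1, the maintenance methyltransferase that copies methylation to the new strand after replication, lay on the minus strand of chromosome 19 (10133346 to 10194953, 61.6 kb). It held 65 sites, more than 98.1% of genes with a site, at 1.06 sites per kb. The first site lay 12.8 kb from the annotated start and the last 2.18 kb before the end of the gene. Between them no stretch longer than 5.80 kb was free of sites, and the first and last site spanned 75.7% of DNMT1. Joining neighbours at most 5 kb apart gave 3 blocks, of which the first, from 10156551 to 10182143, held 53 sites. The tightest group held 6 sites within 119 nt (chr19:10173841-10173959).

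DNMT3A, which sets methylation de novo and is among the genes most often mutated in clonal haematopoiesis, held 1 site. Its span on the minus strand of chromosome 2 (25227874 to 25342590) measures 115 kb. The site (chr2:25237044-25237048) lay 106 kb from the outermost start. RefSeq lists 6 starts for the gene, and the most downstream lies 90.5 kb from the outermost, so the site was downstream of every one. The density was 0.0087 sites per kb, against a median of 0.199 in genes with a site. Its paralog DNMT3B, also a de novo enzyme, held 54 sites in 47.0 kb, close in number to DNMT1.

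TET2, an oxidase of 5-methylcytosine and a frequent target of loss-of-function mutation in myeloid cells, held 3 sites. The gene lies on the plus strand of chromosome 4 (105145875 to 105279803, 134 kb). The sites fell within 1.49 kb (chr4:105241282-105242771), at 71.2% to 72.3% of the gene, and the first 2 were 6 nt apart. The remaining 95.4 kb upstream and 37.0 kb downstream were free of listed sites. TET2-AS1, a minus-strand RNA gene, is annotated over the same interval, but the 3 sites were on the plus strand. The paralogs TET1 and TET3 held 11 and 3 sites in 134 kb and 152 kb. Per kb, the TET genes and DNMT3A had at most 0.082 sites, DNMT1 had 1.06 and DNMT3B 1.15.

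EZH2, the catalytic subunit of PRC2, held the most sites of the 10 genes, 93, and ranked 46th of the 7609 genes with a site. It lies on the minus strand of chromosome 7 (148807383 to 148884291, 76.9 kb). The density of 1.21 sites per kb was higher than in 90.6% of genes with a site. The sites were in 3 blocks. The first held 4 sites 36.9 to 37.6 kb from the outermost start (chr7:148846647-148847356). The second held 17 sites at 54.4 to 58.3 kb (chr7:148826006-148829908). The third held 72 sites in the last stretch of the gene, 64.5 to 76.2 kb from the start (chr7:148808060-148819776). This last block, 11.7 kb long, thus contained 77.4% of the sites of EZH2, while the first 48.0% of the gene contained none. Within it lay 3 of the 6 groups of at least 5 sites found in the 10 genes, the largest with 6 sites in 141 nt (chr7:148817727-148817867).

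SUZ12 and EED, the other core subunits of PRC2, carried nearly the same number of sites, 21 and 22. SUZ12, which holds the complex together, lies on the plus strand of chromosome 17 (31937007 to 32001038, 64.0 kb). Its sites were spread over 5 blocks of 2 to 8 sites between 10.6 kb and 59.8 kb from the start, with a gap of 18.5 kb between the first and the second block. SUZ12P1, a transcribed pseudogene copy on the same chromosome, held 25 sites, of which 24 were on the plus strand. Reads shared by the copies can be assigned to either, so the count of SUZ12 is uncertain. EED, the subunit that reads the trimethylated lysine 27, lies on the plus strand of chromosome 11 (86244753 to 86287615, 42.9 kb). Its sites formed 3 blocks of 7, 7 and 8 sites. They began 7.34 kb from the start and ended at 77.6% of the gene, 9.59 kb before its end. EED was the only one of the 10 genes whose median site lay in the first 50% of the gene, at 45.3%. The 3 core subunits together held 136 sites, and EZH1, the alternative catalytic subunit, held 9.

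ASXL1, which is truncated by mutations in its last exon in myeloid disease, held 22 sites. Relative to gene length, it had the longest gap between neighbouring sites of the 8 genes with at least 10 sites. Such gaps leave out the stretch before the first site, which was 78.8% of the gene in BCOR. ASXL1 lies on the plus strand of chromosome 20 (32358331 to 32439319, 81.0 kb). A first block of 3 sites lay 8.04 to 10.8 kb from the outermost start, and the other 19 lay within 3.50 kb (chr20:32428076-32431571). The stretch between these blocks, 59.0 kb or 72.8% of the gene, held none. This longest gap was larger, relative to the gene, than in 99.5% of the 1518 genes of the length range of the 10 with at least 10 sites, where the median was 18.8%. A group of 5 sites lay in 59 nt (chr20:32428258-32428316). ASXL2 held 12 sites, and ASXL3 held none.

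KDM6A, the demethylase of lysine 27 encoded on the X chromosome, is the longest of the genes at 240 kb (plus strand, 44873188 to 45112779) and held 67 sites. They fell into 10 blocks between 60.8 kb and 238 kb from the start, more blocks than in any other of the 10 genes. The 2 richest blocks held 20 sites (chrX:45058932-45063413) and 25 sites (chrX:45076638-45090929). In the densest 10 kb lay 32.8% of its sites, against a median of 50% in genes of the length range with at least 10 sites. KDM6A is at the upper limit of that range. The 10 kb window and the 5 kb that joins blocks are fixed, so both cover a smaller part of a longer gene. Its paralog KDM6B held 8 sites in 20.6 kb.

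BCOR, a corepressor of BCL6 and a subunit of the variant Polycomb complex PRC1.1, also lies on the X chromosome (minus strand, 40051246 to 40177277, 126 kb). All 18 sites lay at 78.8% of the gene length or beyond, and 11 of them lay in the final block, which ended 1.17 kb before the gene end (chrX:40052412-40057376). The first site lay 99.3 kb from the outermost start. RefSeq has a second start 30.6 kb into the span, and from that start the first site was still 68.6 kb away. The first site lay further into the gene, in percent of its length, than in 97.1% of the genes of the length range with at least 10 sites. The paralog BCORL1 held 4 sites in 77.8 kb.

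KMT2A, the histone H3 lysine 4 methyltransferase that is rearranged in acute leukaemia, held 43 sites on the plus strand of chromosome 11 (118436492 to 118526832, 90.3 kb). The first 47.7 kb held none. A block of 32 sites followed (chr11:118484166-118500947), with 27 of them within 10 kb, and blocks of 3 and 8 sites lay further downstream. TTC36-AS1, a minus-strand RNA gene, is annotated over the region that holds the last 9 sites, all of which were on the strand of KMT2A. Of its paralogs, KMT2C held 135 sites in 301 kb, KMT2D 31 in 41.8 kb and KMT2B 24 in 20.9 kb. KMT2C has copied segments elsewhere in the genome, so its count is uncertain. Per kb, KMT2B had 1.15 sites, KMT2D 0.741, KMT2A 0.476 and KMT2C 0.448, so the order per length differed from the order by count.

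**Figure D2:**
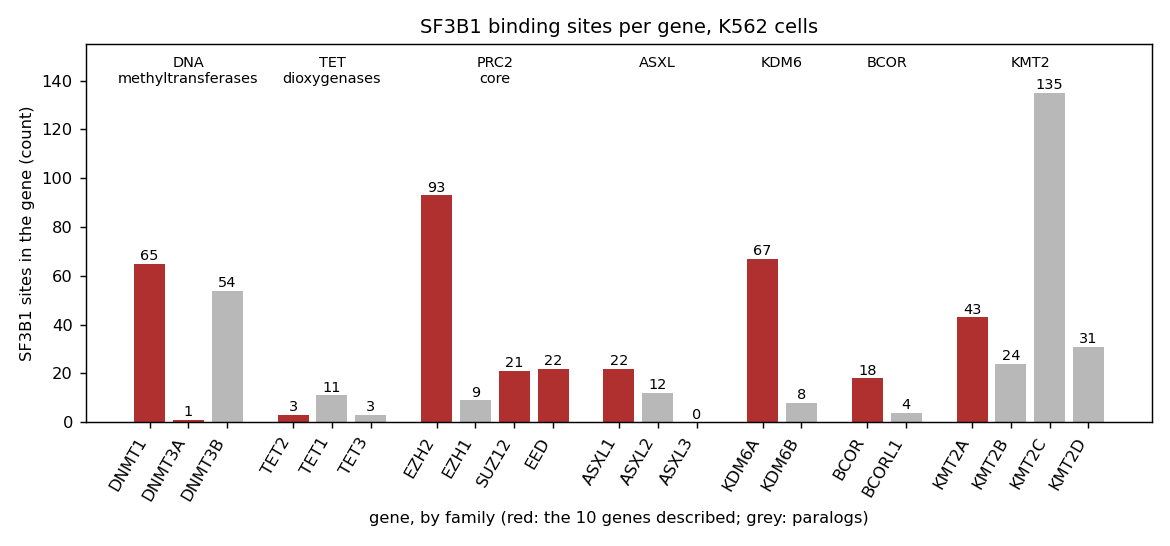
Number of SF3B1 sites per gene (count) for the 10 genes (red bars) and their paralogs (grey bars), grouped by family, from the merged list without replicates. DNMT3A (1 site) and TET2 (3) stand low beside DNMT1 (65), DNMT3B (54) and EZH2 (93), and KMT2C reaches 135.

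**Figure D3:**
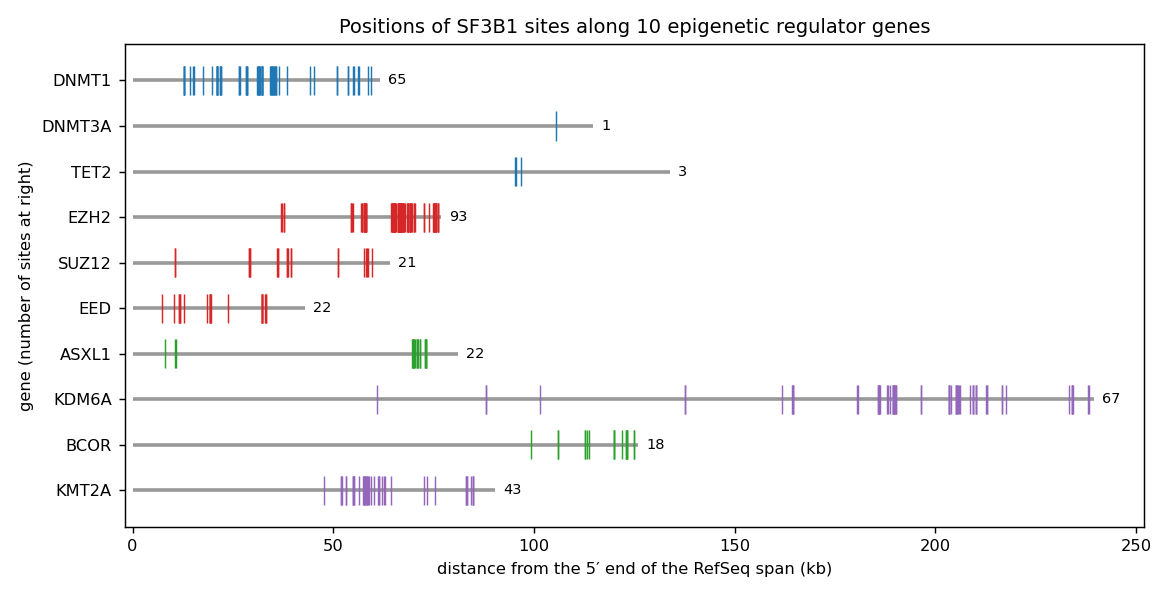
Position of each of the 355 sites (vertical ticks) along the 10 genes, as distance from the 5′ end of the RefSeq span in kb; grey lines are the gene spans, and the number of sites stands at the right. Tick colours group DNMT1, DNMT3A and TET2 (blue), the PRC2 core (red), ASXL1 and BCOR (green), and KDM6A and KMT2A (purple); EZH2, ASXL1 and BCOR have most ticks near the 3′ end, while the ticks of DNMT1 span 75.7% of its length.

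Sites were sparse near the annotated starts, as in other genes. No site lay in the window from 250 bases before to 50 bases after any RefSeq start of the 10 genes, and no site lay upstream of the most downstream RefSeq start. Of 1279 genes of the length range with at least 10 sites and a listed start, 98.0% likewise had no site in these windows, and 75.2% had none in the first 10% of the gene, against 7 of the 8 genes here with at least 10 sites. The distance from the outermost start to the first site ranged from 7.34 kb in EED to 106 kb in DNMT3A. Only 1 of the 355 sites, in ASXL1, was in the first 10% of a gene, which is 0.282% (interval 0.050% to 1.58%). In all protein-coding genes with a site, 4.63% of sites were there. The last 10% held 68 sites, or 19.2% (15.4% to 23.6%), against 13.5% in all genes. Of those 68 sites, 24 were in EZH2, 12 in BCOR and 10 in KDM6A, whereas EED and TET2 had 0. The second 50% of the gene held 298 sites, or 83.9% (79.8% to 87.4%), against 63.4% in all genes. The median site lay in it in 9 of the 10 genes, among them DNMT3A with 1 site and TET2 with 3. Among the 1518 genes of the length range with at least 10 sites, the lower quartile of the median site was 49.0% of the gene. Most of those genes thus also had their median site in the second 50%. The stretch from 80% to 90% held 103 sites, of which 48 were in EZH2, so this pooled profile follows the genes with the most sites.

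**Figure D4:**
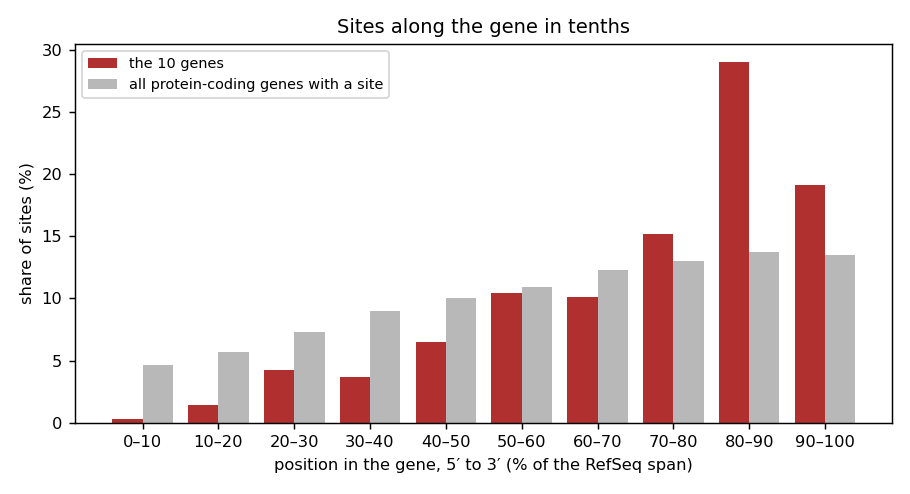
Share of sites (%) in each 10% of the gene from 5′ to 3′, for the 355 sites of the 10 genes (red bars) and for all protein-coding genes with a site (grey bars). The red bars rise from 0.282% in the first to 29.0% in the stretch from 80% to 90% and stand at 19.2% in the last, against 4.63%, 13.7% and 13.5% for the grey bars.

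The layouts differed from gene to gene. Among the 1518 genes of the length range with at least 10 sites, the first site lay at a median of 23.7% of the gene (quartiles 9.72% and 42.1%). ASXL1 (9.93%), SUZ12 (16.5%), EED (17.1%), DNMT1 (20.8%) and KDM6A (25.4%) lay between those quartiles. EZH2 (48.0%), KMT2A (52.8%) and BCOR (78.8%) lay above the upper quartile. The median site stood at 65.5% in the same genes (quartiles 49.0% and 78.3%), and it stood above the upper quartile in KDM6A (81.9%), EZH2 (86.7%), ASXL1 (87.1%) and BCOR (95.2%). EED was below the lower quartile. DNMT1, SUZ12 and KMT2A were between the quartiles.

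Neighbouring sites in the 10 genes, pooled, lay a median of 123 nt apart, with quartiles of 24 and 615 nt. In all genes with a site these were 157, 28 and 1308 nt. By gene the median was 54 nt in EZH2, 116 in KDM6A, 132 in DNMT1, 133 in BCOR and 151 in ASXL1. It was above 157 nt in EED (164), KMT2A (221.5) and SUZ12 (226), so the pooled value leans on EZH2, which has the most sites. TET2, with 3 sites, had only the distances 6 nt and 1.48 kb, and their midpoint of 742.5 nt describes neither. Linking neighbours at most 60 nt apart gave 206 groups, of which 115, or 55.8%, were single sites. The largest held 6 sites, one in DNMT1 and one in EZH2. A partner 25 to 45 nt away on the same strand was found for 150 of the 355 sites, or 42.3% (37.2% to 47.4%), against 36.5% in all genes. KDM6A had the highest share, 58.2% of its 67 sites, followed by BCOR with 55.6% of 18. Without KDM6A the share was 38.5%. DNMT1, EED, EZH2, SUZ12 and ASXL1 lay between 36.4% and 41.5%, KMT2A had 30.2%, and DNMT3A and TET2 had no partnered site. The median over the 1518 genes was 40.0% with quartiles of 29.2% and 50%, so KDM6A and BCOR were above the upper quartile and the other 6 genes with at least 10 sites were between the quartiles.

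**Figure D5:**
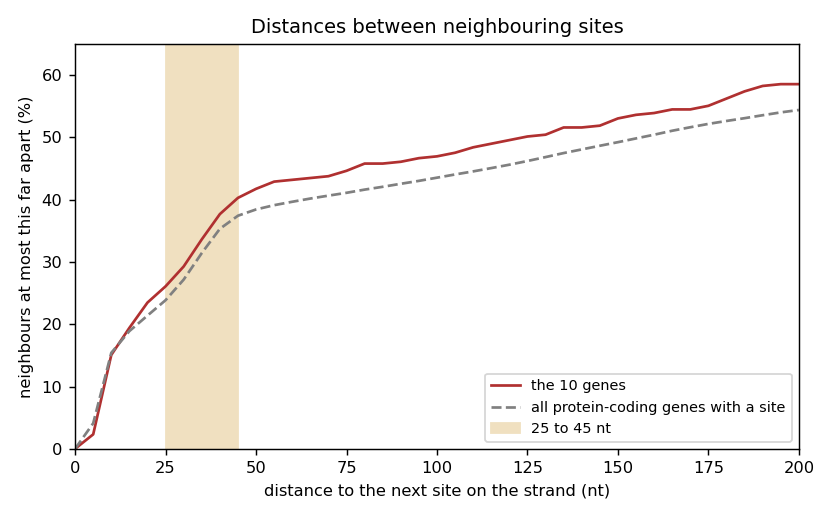
Cumulative share of neighbouring sites (%) against their distance on the strand (nt), for the 10 genes (solid red line) and all protein-coding genes with a site (dashed grey line); the shaded span marks 25 to 45 nt. Both lines climb most steeply up to 12 nt and go on rising through the shaded span. From 25 to 45 nt the red line goes from 26.1% to 40.3% and the grey line from 23.9% to 37.4%. At 60 nt they reach 43.2% and 39.7%.

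The close pairs were examined as paired footprints, meaning groups that split into exactly 2 elements (sites joined up to a distance of 12 nt) with 25 to 45 nt between their mean positions. There were 44 in the 10 genes, with a median spacing of 36.5 nt. KDM6A held 15 of them, DNMT1 and EZH2 7 each, SUZ12 and KMT2A 4 each, BCOR 3, and EED and ASXL1 2 each. Most pairs were of single sites, as in the KDM6A pair with a spacing of 37 nt that lay closest to the 3′ end (chrX:45111331-45111372). A fuller one in EZH2 had 2 upstream and 3 downstream sites 37 nt apart (chr7:148815543-148815598). Upstream elements held 60 sites and downstream elements 56. The upstream element was the larger in 8 pairs, the downstream one in 6, and 30 were equal.

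Over longer distances, 56 pairs of sites lay 140 to 180 nt apart, and 45 at 60 to 100 nt. The ratio was 1.24, where all genes with a site gave 1.72. The 10 genes differed among themselves. KMT2A had 9 pairs at the longer distance and 0 at the shorter, KDM6A 8 and 4, and EZH2 20 and 18. DNMT1 had 9 and 11, and SUZ12 0 and 4.

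A wider set of 40 other genes of the same pathways was counted. A site was found in 37 of the 40, against 38% of all protein-coding genes, and at least 10 sites in 20 of the 40, against 14.8%. In the 5999 protein-coding genes of 42.9 to 240 kb these shares were 50.9% and 25.3%. The 40 genes run from 2.65 kb (PCGF1) to 301 kb (KMT2C) and were not matched for length. Their median was 9.5 sites. The 3 with the most sites were KMT2C, DNMT3B and ASH2L, a core subunit of the KMT2 complexes with 43 sites. EPOP, BMI1 and ASXL3 were at 0. Among the 6 genes of DNA methylation besides the members, all had a site, IDH1 with 23 and IDH2, whose enzyme makes the same TET cofactor 2-oxoglutarate, with 1. Of 9 PRC2 genes besides the core, 8 had a site, and the histone-binding RBBP4 (32) and RBBP7 (17) and the accessory PHF19 (38) and MTF2 (25) were the highest. Of 8 genes of the PRC1 and BCOR complex, 7 had a site, but only PCGF1, the ring-finger partner of BCOR, reached 10. All 8 genes of the H3K4 methyltransferase complexes had a site, with a median of 20.5. The median was 4 in the PRC1 and BCOR group and 14 in the PRC2 group. These differences were not tested.

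For each of the 8 genes with at least 10 sites, the protein-coding gene nearest in number of sites and length on the log2 scale was found. KMT2A was nearest to RANBP9 (43 sites each, 90.3 kb each), SUZ12 to TBC1D23 (21 each), EED to CEP57 (22 each), and ASXL1 to NUP62CL (22 each). KDM6A was nearest to ANK1 (68 sites), EZH2 to NCAPG2 (88) and BCOR to PLAGL1 (19). These matches describe 2 measured quantities only.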

How the data were processed

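iCLIP was done on 9 K562 samples. The authors deposited 1 list of sites in BED form; per the file headers, it holds merged sites of 5 nt that all replicates of either condition reproduced. The deposited score was 0 in every row. The submitters' processing notes name FastQC 0.11.8, STAR 2.7.3a and 2.6.1b, UMI-tools 1.0.0, bedtools 2.27.1 and the builds GRCh38.p10 and GRCh38.p12; the site caller is not given in the sources used here. Such a filter can miss contacts in rare RNA.

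Positions were made 1-based and a site was placed by its centre. Gene spans came from RefSeq GRCh38.p14, and strand from the RefSeq table of starts, which held all 10 genes. For the background, 15843 of 20050 protein-coding genes had a strand there, and for 1223 more the strand with more sites was used. A site in several genes counted for each. No exons or genome sequence were used, so the planned count near 3′ splice sites was not made and no site sequences are shown. The members, lists and measures were chosen with earlier results of these data known. All 10 members are named; of the wider set, the paralogs, the 3 genes with the most sites and those at 0 are named by rule, and other genes were named after their values were seen. The blocks, the longest gap, the densest 10 kb and the comparisons with genes of the same length range were also chosen after the data were seen. The gene nearest to DNMT1 and some marker genes are not reported here. Counting was tested on simulated data, where planted sites were recovered in 200 of 200 genes. Python 3.11.15, NumPy 2.4.6, pandas 2.3.3, SciPy 1.17.1 and Matplotlib 3.10.9 were used.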

Additional observations from a re-analysis of the deposited data

How the results depend on the processing

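Of 83 recalculations of 16 results, 78 stayed within 1.5 times (counts) or within the 95% interval (shares). This tally says little, since 60 of the 83 were recounts of single genes under 6 settings, and all 60 stayed so. Counting either strand, or leaving out sites in another protein-coding gene, could change no count, as there were 0 such sites. TET2 went from 3 sites to 2 with 1 site per region number, which is the limit of 1.5 times. The number of sites in the 10 genes was 347 with touching sites merged, 326 with 1 site per region number, and 355 in the other 4 recounts, and each gene's own count stayed within 1.5 times in all 6. The share of partnered sites was 30.7% with a partner 31 to 41 nt away and 51.5% with 20 to 60 nt, as the narrower and wider spans imply. The last 5% of the genes held 9.86% of sites and the last 20% held 48.2%. With a minimum of 5 sites, 23.1% of protein-coding genes and 8 of the 10 genes qualified. The alternatives that link groups at 30 or 100 nt (254 and 193 groups) and that leave out KDM6A, EZH2 or BCOR were chosen after seeing the data. Alternatives near 3′ splice sites were not run, since no exons were used. Replicates could not be left out, and the depth of the list is unknown, so a gene at 0 or 1 site cannot be told from one with rare RNA. No paired analysis was possible because replicates were merged into 1 list.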
